A study of Mus musculus with 4 samples.

Results

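The 10 genes described here are regulators known to act downstream of neurogenin 3 (Neurog3) when pancreatic endocrine cells form. They are Neurod1, Neurod2, Insm1, St18, Myt1, Rfx3, Rfx6, Runx1t1, Cbfa2t3 and Pak3. Members were taken by gene symbol, and all 10 had a row among the 20377 genes of the deposited RPKM table (reads per kilobase of transcript, scaled to the mapped reads of the library). The cells were gallbladder cells of MIP-GFP mice, strain B6.Cg-Tg(Ins1-EGFP)1Hara/J on a C57BL/6 background, 8 weeks of age, grown in culture. In the 10 days of reprogramming they were given the transcription factors Pdx1, Ngn3 (Neurog3), Mafa and PAX6 plus compounds that the labels leave unnamed. Green cells were then sorted, so the group, called rGBC2 in the labels, holds only cells in which the Ins1 promoter of the reporter was active. There are 4 libraries, numbered replicates 1 to 4, and the labels do not tie them to separate animals or cultures, so every p-value measures the spread between these libraries, which may be technical. No library of untreated gallbladder cells was analysed here, so a level is a level and not an induction.

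Neurog3 is a basic helix-loop-helix (bHLH) transcription factor that binds E-boxes, short DNA sites of the form CANNTG. In the embryonic pancreas it is switched on briefly in progenitors that leave the duct-like epithelium, and its loss in mice removes the islet endocrine cells. It hands over to a second layer of regulators, among them Neurod1, Insm1, Rfx6 and Myt1, which stay on in the differentiating cell and drive hormone and secretory genes, while Notch signalling and its target Hes1 hold Neurog3 back.

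The upstream sequences of 3 members are shown because their levels, as deposited, relate to that of Neurog3 in different ways: Neurod1 differed widely between libraries, Neurod2 hardly differed, and Myt1 kept an almost fixed ratio to Neurog3. They are the 250 bases before the transcription start in RefSeq, build GRCm38.p6, printed 5′ to 3′ on the gene's strand, with every CANNTG in capitals. RefSeq windows were found by gene symbol for 7 of 10 members. The windows of Rfx3 and Rfx6 have starts 28218 and 7762 bases from that of the transcript matched to the deposited identifier, and are not shown. The start used lies 115 bases (Neurod1), 3 bases (Neurod2) and 0 bases (Myt1) from that of the transcript matched to the deposited identifier.
Neurod1, chr2:79456637-79456886, minus strand: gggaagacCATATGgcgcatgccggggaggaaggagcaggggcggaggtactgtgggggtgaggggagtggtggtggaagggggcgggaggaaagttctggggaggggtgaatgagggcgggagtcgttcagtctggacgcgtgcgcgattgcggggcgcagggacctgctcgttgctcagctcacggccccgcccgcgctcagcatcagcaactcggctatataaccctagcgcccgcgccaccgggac
Neurod2, chr11:98329646-98329895, minus strand: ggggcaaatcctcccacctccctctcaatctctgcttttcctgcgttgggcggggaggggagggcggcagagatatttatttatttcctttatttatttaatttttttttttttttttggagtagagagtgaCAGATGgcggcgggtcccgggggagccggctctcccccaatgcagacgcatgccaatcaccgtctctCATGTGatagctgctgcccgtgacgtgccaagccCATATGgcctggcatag
Myt1, chr2:181763082-181763331, plus strand: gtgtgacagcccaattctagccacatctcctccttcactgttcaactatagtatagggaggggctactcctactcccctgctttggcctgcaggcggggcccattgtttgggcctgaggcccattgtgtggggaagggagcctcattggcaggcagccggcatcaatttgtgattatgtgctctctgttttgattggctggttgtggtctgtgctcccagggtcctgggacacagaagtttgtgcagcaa

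These stretches were searched on both strands for CANNTG, whose matches fall on both strands together, and separately for its special cases CAGATG (also bound by Neurod factors) and CATATG. Neurod1 held a single match of CANNTG, spelled CATATG, which begins 242 bases before the start. Neurod2 held 3 matches, spelled CAGATG (118 bases before the start), then CATGTG (51 bases) and then CATATG (17 bases), while Myt1 held none. RefSeq has 3 windows for Myt1, and its result is for the printed one alone. Of all 32851 RefSeq windows of this length, 66.2% held at least 1 CANNTG and 12.2% at least 3, while 14.4% held CAGATG and 3.46% held CATATG. The motif AAGTT, the core letters bound by Myt1-type zinc fingers, was found 158 bases before the start of Neurod1 and 15 bases before that of Myt1, and in 35.3% of all windows. GTTGCC, part of the site bound by RFX factors, was in none of the 3 stretches and in 10.4% of all windows. A match of letters describes the window and is not a measured binding site.

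The deposited table holds no read totals. Depth was estimated from the low values among 981 olfactory receptor genes, which were 32, 25, 14 and 16 values in replicates 1 to 4. It came to 21.8 M to 32.7 M reads per library. With so few values, depth and the read counts and counting noise drawn from it are approximate. At these depths 3 reads on a 1 kilobase transcript equal 0.0919 to 0.138 RPKM, a floor that covers counting error only. Replicates 3 and 4 were close to each other. Their root mean square difference over genes of at least 1 RPKM was 0.16 on the log2(RPKM + 1) scale, against 0.57 to 0.80 for the other 5 pairs of libraries, yet 40.9% of genes still differed between them beyond the 95% limit of counting noise. Replicates 1 and 2 held reads of 4 Y-linked genes, with sums of 95.4 and 107 RPKM, and replicates 3 and 4 held none. Sex of the source cells and any other difference between these pairs of libraries cannot be told apart. Most epithelial and islet marker genes were present, with Krt7 at 466 to 802 RPKM and Ins2 at 1091 to 4240 RPKM. By the test described below, 9 of 11 biliary and 6 of 7 islet hormone genes lay above 1 RPKM, against 65.0% of all genes. The exceptions were Cftr, Sox9 and Ppy, with means of 0.43, 0.84 and 0.60 RPKM. Because the sort selected on an insulin promoter, the Ins2 level is a weak check. These are bulk libraries, so fewer expressing cells and less RNA per cell cannot be told apart.

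Of the 10 regulators, 7 lay above 1 RPKM, 1 below it and 2 passed in neither direction. The test was limma's moderated test of log2(RPKM + 1) against the value at 1 RPKM, with Benjamini-Hochberg adjustment over 16919 genes that were not at 0 in every library. Among all genes tested 65.0% lay above and 26.1% below, so 7 of 10 is near the share of all genes. In either direction 91.2% of genes were called. The median of the 10 mean levels was 4.41 RPKM, against 7.38 RPKM over all genes tested. Insm1 and St18 together made up 80.4% to 88.8% of the summed RPKM of the 10 members.

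**Figure D1:**
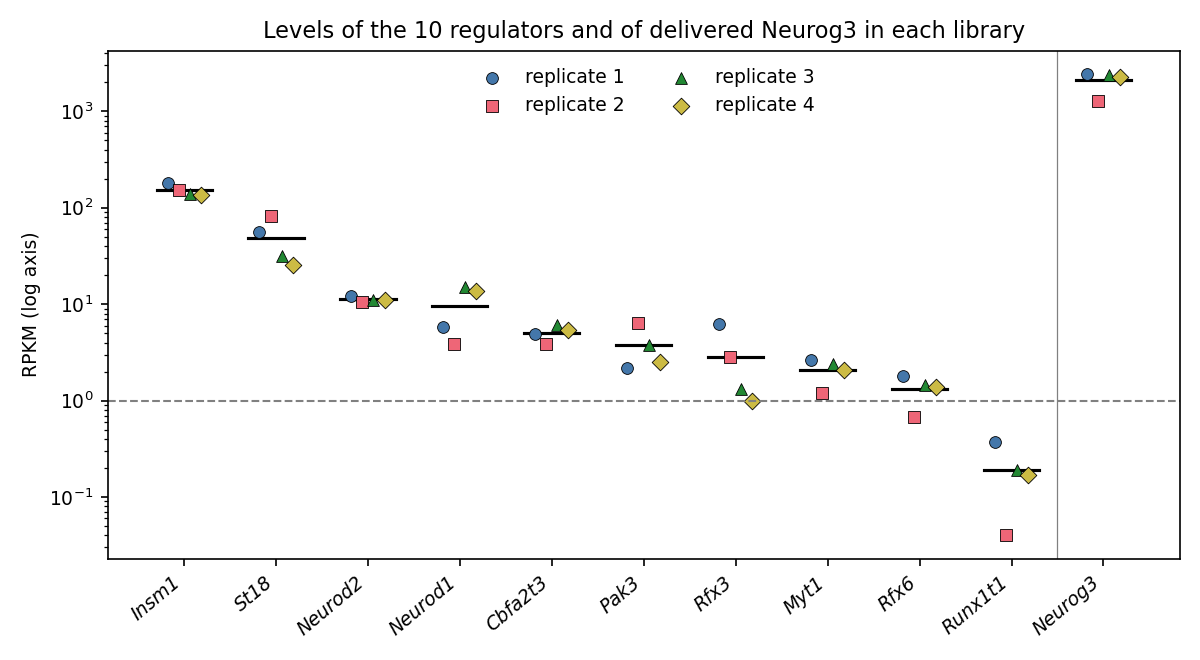
RPKM (log axis) of the 10 regulators, ordered by mean, and of Neurog3, with a marker for each of the 4 libraries and a bar at the mean. The dashed line is 1 RPKM. Insm1 and St18 stand above the other 8 in every library, and Neurog3, at 1289.7 to 2444 RPKM, stands above all 10.

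Neurod1 and Neurod2 are bHLH factors related to Neurog3. Neurod1, which carries the endocrine programme forward in the pancreas and activates the insulin gene, is the member of this pair known from islets, while Neurod2 is best known from neurons. Neurod1 (mm9 chromosome 2 from 79292797 to 79296793) was measured at 5.85, 3.84, 15.2 and 13.7 RPKM in replicates 1 to 4. Replicates 3 and 4 were high and replicates 1 and 2 low, with a 3.96-fold range. Its mean was 9.64 ± 5.63 RPKM (SD, n = 4), above 1 RPKM (limma, adjusted p = 0.0012). Neurod2 (chromosome 11 from 98186730 to 98190959) was at 12.2, 10.6, 11.0 and 11.05 RPKM, a 1.16-fold range, and also lay above 1 RPKM (limma, adjusted p = 4.05e-06). Of the 11955 genes of at least 1 RPKM, 3.13% had a smaller SD of log2(RPKM) over the 4 libraries. After the adjustment for GC content and transcript length described further on, the range of Neurod2 was 0.42, against 0.19 as deposited, on the log2(RPKM + 1) scale.

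The order of this pair was not the same in all libraries. Neurod1 was lower than Neurod2 in replicates 1 and 2, with RPKM ratios of 0.478 and 0.363, and higher in replicates 3 and 4, with ratios of 1.38 and 1.24. The mean difference of Neurod1 minus Neurod2 was -0.37 ± 0.85 (SD, n = 4) in log2 units of RPKM + 1, within its own spread (two-sided exact permutation test by sign flips, p = 0.5). With 4 libraries this test cannot give a p below 0.125, so none of the 8 pairs of related genes that were compared could pass 0.05. Of their other relatives, Neurod6 was listed at 0 in every library.

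Insm1, a zinc finger repressor needed for endocrine cells of pancreas and gut and for neuroendocrine cells elsewhere, was the most abundant of the 10. It lies on chromosome 2 from 146047732 to 146050754 in mm9. Its level was 179, 153, 139 and 135 RPKM in replicates 1 to 4, with a mean of 151 ± 19.97 RPKM (SD, n = 4). No other member reached the lowest of these values, and by mean level Insm1 ranked 539 among the 20377 genes. It lay above 1 RPKM (limma, adjusted p = 2.29e-07). Neurod1 was lower than Insm1 in 4 of 4 libraries, by an average of -4.01 ± 0.99 in log2 units of RPKM + 1 (exact sign-flip p = 0.125, adjusted 0.167 over the 8 pairs). Its relative Insm2 was at 0.1, 0.04, 0.09 and 0.09 RPKM, so that Insm1 made up at least 99.9% of the RPKM of the pair in every library. All 11 genes of a list of corepressor partners lay above 1 RPKM, against 65.0% of all genes tested. The list holds the histone demethylase Kdm1a and the deacetylases Hdac1, Hdac2 and Hdac3, which act with zinc finger and Runx1t1-family repressors. Hdac2 averaged 70.6 ± 17.8 RPKM and Hdac1, the lowest of the list, 11.8 ± 1.58 RPKM (SD, n = 4).

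St18 and Myt1 are zinc finger factors of the Myt family, with roles in neurons and in islet endocrine cells. St18 (chromosome 1 from 6720131 to 6851021) was at 55.4, 81.2, 31.5 and 25.4 RPKM in replicates 1 to 4. Replicate 2 was highest, and replicates 1 and 2 stood above replicates 3 and 4, the reverse of Neurod1. Its mean of 48.3 ± 25.4 RPKM (SD, n = 4) lay above 1 RPKM (limma, adjusted p = 2.02e-05). Myt1 (chromosome 2 from 181498036 to 181562480) was at 2.61, 1.20, 2.38 and 2.07 RPKM and was lowest in replicate 2. It passed as above 1 RPKM (limma, adjusted p = 0.0163), but not without replicate 3 (adjusted p = 0.0682), without replicate 4 (0.0551) or with replicates 3 and 4 averaged and counted once (0.0618). St18 exceeded Myt1 in 4 of 4 libraries, 12.3-fold to 67.6-fold, averaging 3.89 ± 0.97 in log2 units of RPKM + 1 (exact sign-flip p = 0.125, adjusted 0.167). It likewise exceeded Myt1l, the third gene of the family, by 4.65 ± 0.95 in 4 of 4 libraries (exact sign-flip p = 0.125).

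Rfx3 and Rfx6 belong to the RFX family of winged-helix factors. Rfx6 is needed in mice for most islet endocrine types to form and supports insulin secretion, and Rfx3 drives cilia genes and takes part in islet differentiation. Rfx6 (chromosome 10 from 51397565 to 51450235) was at 1.78, 0.67, 1.44 and 1.39 RPKM in replicates 1 to 4, lowest in replicate 2. Rfx3 (chromosome 19 from 27836210 to 28057438) was at 6.29, 2.86, 1.31 and 0.98 RPKM, highest in replicate 1, with a 6.42-fold range. Neither passed the test against 1 RPKM (limma, adjusted p = 0.254 for Rfx6 and 0.0809 for Rfx3). Without replicate 2 Rfx6 passed as above 1 RPKM (adjusted p = 0.0459), and without replicate 4 Rfx3 did (adjusted p = 0.0437). Rfx6 was below Rfx3 in replicates 1 and 2, with ratios of 0.283 and 0.234, and above it in replicates 3 and 4, with ratios of 1.10 and 1.42, so their difference averaged -0.56 ± 0.86 in log2 units of RPKM + 1, within its own spread (exact sign-flip p = 0.5). This change of order was not seen after adjustment for GC content and length, where Rfx6 was below Rfx3 in all 4 libraries.

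The RFX transcripts of these cells were mainly those of other family members, which are named here after their values were seen. Rfx7 averaged 9.52 ± 4.55 RPKM, Rfx5, a regulator of MHC class II genes, 9.27 ± 0.865 RPKM and Rfx1 7.59 ± 1.06 RPKM (SD, n = 4). Rfx3 and Rfx6 together held 8.03% to 16.6% of the summed RPKM of the 8 RFX genes. Of 9 cilia genes listed as RFX-regulated, 6 were measured here and all 6 lay above 1 RPKM, against 65.0% of all genes. Ift122, an intraflagellar transport gene, averaged 18.7 ± 5.25 RPKM and Foxj1, the regulator of motile cilia, 3.38 ± 1.75 RPKM (SD, n = 4).

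Runx1t1 and Cbfa2t3 encode corepressors of the ETO family, which bridge DNA-bound factors to histone deacetylases and are best studied in blood cells. Runx1t1 (chromosome 4 from 13711928 to 13820790) measured 0.37, 0.04, 0.19 and 0.17 RPKM in replicates 1 to 4, and it was the single member below 1 RPKM (limma, adjusted p = 8.36e-05). Its value in replicate 2 lies under the 0.0415 RPKM that 3 reads on its transcript give in that library at the estimated depth. Its 9.25-fold range between libraries is therefore not measured with any precision. Cbfa2t3 (chromosome 8 from 125149035 to 125202075) was at 4.91, 3.87, 6.07 and 5.44 RPKM, above 1 RPKM (limma, adjusted p = 0.00023). Runx1t1 was lower than Cbfa2t3 in 4 of 4 libraries, by -2.34 ± 0.21 in log2 units of RPKM + 1 (exact sign-flip p = 0.125, adjusted 0.167). Cbfa2t2, the other gene of the family, stood at 57.8, 35.4, 84.7 and 83.4 RPKM, and both members together held 6.31% to 9.94% of the family's summed RPKM. Markers of blood cells, where this family is active, differed among themselves. Ptprc, the pan-leukocyte antigen, reached 0.01 RPKM in replicates 1 and 2, with 0 listed for replicates 3 and 4. Of the 9 blood cell markers 2 lay above 1 RPKM, Cd68 and Csf1r, and 5 below, against 65.0% and 26.1% of all genes tested. The list's summed level was 133 to 185 RPKM, of which Cd68 alone gave 126 to 167 RPKM. The part of such cells in the Cbfa2t3 level was not tested.

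Pak3, a p21-activated kinase that is induced after Neurog3 in mouse endocrine progenitors and restrains their division, is the only member that is not a DNA-bound regulator or its corepressor. Pak3 (chromosome X from 140127829 to 140232339) was at 2.19, 6.43, 3.81 and 2.53 RPKM in replicates 1 to 4, highest in replicate 2 as deposited but in replicate 3 after adjustment for GC content and length. Its mean of 3.74 ± 1.92 RPKM (SD, n = 4) lay above 1 RPKM (limma, adjusted p = 0.00556). It was lower than its relative Pak1 in 4 of 4 libraries, by -3.17 ± 0.26 in log2 units of RPKM + 1 (exact sign-flip p = 0.125), and held 1.83% to 4.53% of the summed RPKM of 6 Pak genes, which Pak4 led with 51.4 ± 11.2 RPKM. Of 12 genes of the cell cycle and its exit, 8 lay above 1 RPKM and 3 below, against 65.0% and 26.1% of all genes tested. Cdkn1a, the cyclin-dependent kinase inhibitor p21, was highest at 249.5, 249.9, 580.3 and 607 RPKM, and the proliferation antigen Mki67 was at 0.05, 0.82, 0.01 and 0.04 RPKM. The cyclin gene Ccnd2 was second highest, with a mean of 139.9 RPKM. Ccnd1, Ccnd3 and Pcna, named after their values were seen, also lay above 1 RPKM, while Cdk1 and Ccnb1 lay below it with Mki67. Genes of the cycle thus lay on both sides, and exit from the cycle was not tested.

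**Figure D2:**
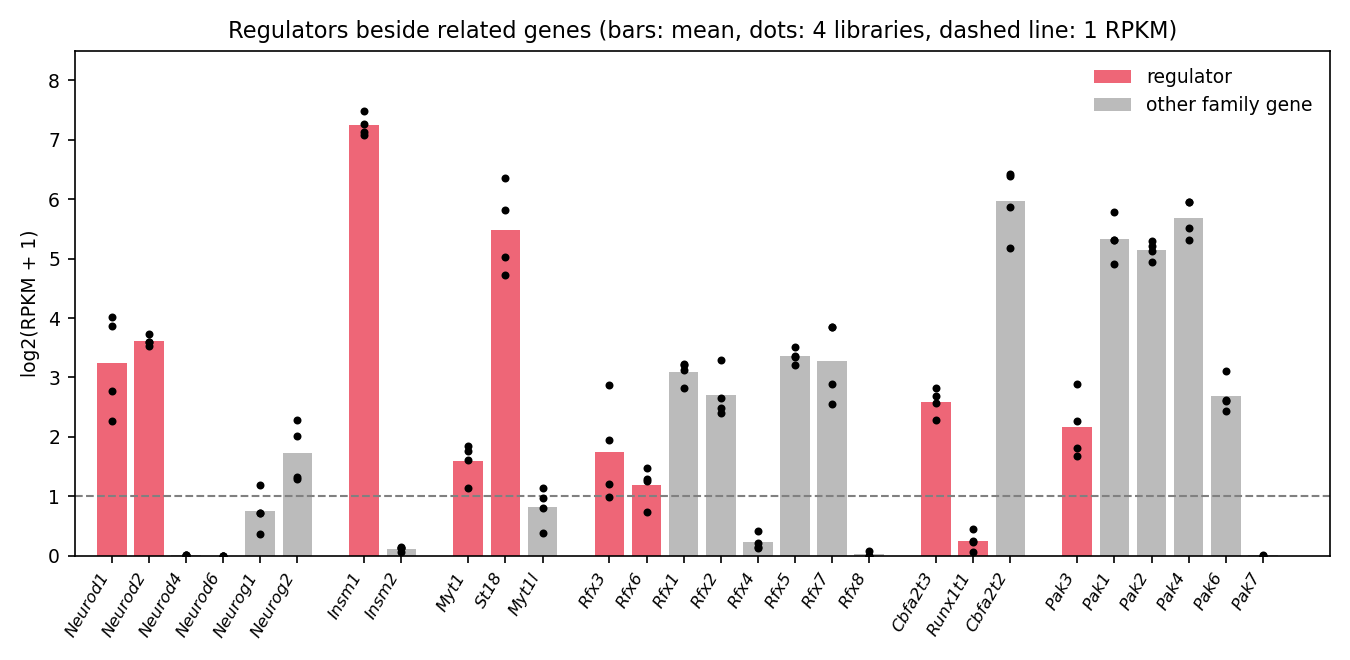
log2(RPKM + 1) of the regulators (red) and of other genes of the same families (grey), with bars at the mean and dots for the 4 libraries. The dashed line marks 1 RPKM. Insm1, St18, Neurod1 and Neurod2 lead their families by mean level (delivered Neurog3 is left out), while Rfx3, Rfx6, Runx1t1, Cbfa2t3 and Pak3 lie under other genes of theirs.

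Ordered by mean, the levels ran from Insm1 through St18, Neurod2, Neurod1, Cbfa2t3, Pak3, Rfx3, Myt1 and Rfx6 to Runx1t1. Insm1 and St18, St18 and Neurod2, and Rfx6 and Runx1t1 did not overlap over the 4 libraries. The other 6 neighbouring pairs overlapped in range, although Myt1 exceeded Rfx6 within each of the 4 libraries, by 0.40 ± 0.05 in log2 units of RPKM + 1 (exact sign-flip p = 0.125).

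All 10 regulators were far lower than delivered Neurog3 in every library. Neurog3 stood at 2444, 1289.7, 2366 and 2268 RPKM in replicates 1 to 4, a value that combines delivered and endogenous transcripts, and replicate 2 was low. As a percentage of Neurog3 in the same library, Insm1 was at 7.31%, 11.9%, 5.85% and 5.94% and St18 at 2.27%, 6.29%, 1.33% and 1.12%. Each of the other 8 members was below 1% of Neurog3 in every library. In limma's moderated test of the within-library difference, 10 of 10 members were lower than Neurog3, as were 99.9% of all 16918 other genes tested, and 0.0296% of those genes were higher, so the call says nothing particular to the members. Every such difference contains the same Neurog3 values, which makes the moderated p-values too small, and they are not given. The mean differences on the log2(RPKM + 1) scale ran from -3.74 ± 0.48 for Insm1 to -10.74 ± 0.32 for Runx1t1 (SD, n = 4), with the same direction in 4 of 4 libraries for each member and an exact sign-flip permutation p of 0.125.

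**Figure D3:**
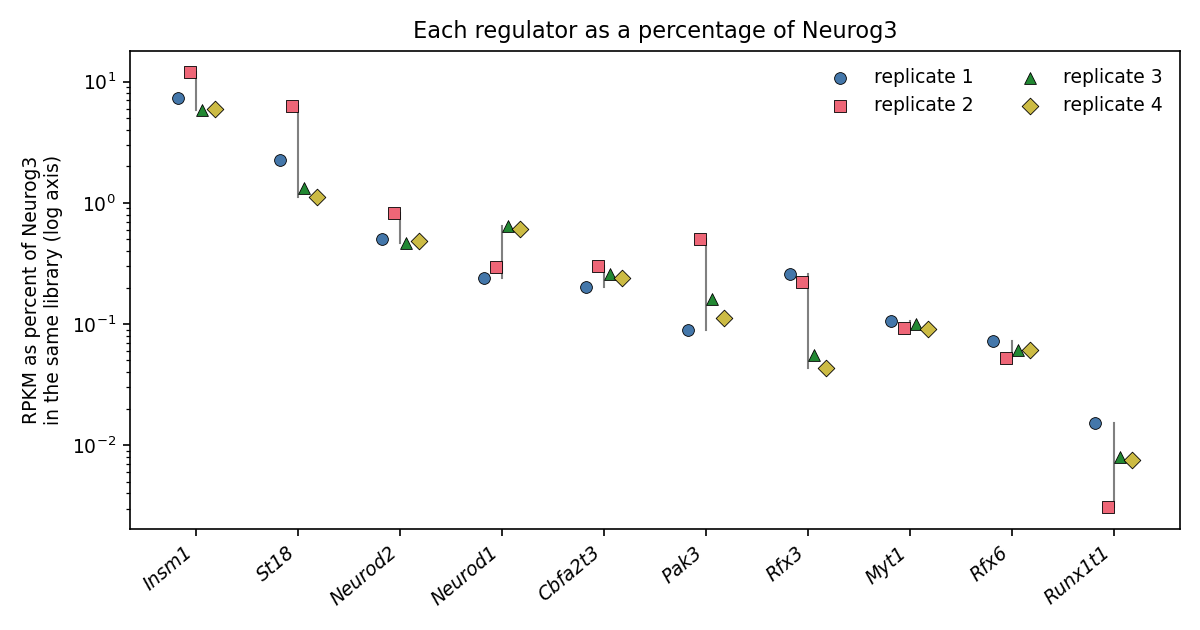
RPKM of each regulator as a percentage of Neurog3 in the same library (log axis), with a marker for each of the 4 libraries and a line over their range. Myt1 keeps within 0.0913% to 0.107% of Neurog3, whereas Pak3 covers 0.0896% to 0.499% and Rfx3 0.0432% to 0.257%.

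The members differed in how closely they followed Neurog3 from library to library. Myt1 was at 0.107%, 0.0930%, 0.101% and 0.0913% of Neurog3 in replicates 1 to 4, a 1.17-fold range, against a 2.18-fold range of its own level. Its SD of log2(RPKM) was 0.50, and the SD of its log2 ratio to Neurog3 was 0.10. Among 11955 genes of at least 1 RPKM, 1.02% had a smaller SD of this ratio. Myt1 is given first because its SD was the smallest of the 10 members, so this share is that of a gene picked by the same value. Rfx6 came next, at 0.0728%, 0.0519%, 0.0609% and 0.0613% of Neurog3, with an SD of 0.20 for the log2 ratio against 0.61 for the level, and 5.05% of those genes had a smaller one. That closeness was not kept under adjustment for GC content and length. On the log2(RPKM + 1) scale the SD of the Rfx6 difference from Neurog3 was then 0.31, against 0.15 as deposited. Rfx3 had a smaller one, 0.15. Runx1t1 was at 0.16, but that scale understates differences of low genes. The log2 ratio of Runx1t1 to Neurog3, as deposited, had an SD of 0.94. Of the 11955 genes, 82.8% had a smaller one. Cbfa2t3 kept between 0.201% and 0.300% of Neurog3, and its SD changed little, to 0.24 from 0.28.

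The remaining members did not keep such a ratio. Neurod1, a direct Neurog3 target in the pancreas, was at 0.239% and 0.298% of Neurog3 in replicates 1 and 2 and at 0.642% and 0.602% in replicates 3 and 4. Neurod2 and Insm1 as deposited varied less than Neurog3, and their ratio was highest in replicate 2, at 0.820% for Neurod2. St18 and, as deposited, Pak3 were highest in replicate 2, where Neurog3 was lowest, and their ratios had SDs of 1.12 and 1.10 on the log2 scale. For Pak3 this did not hold after adjustment, where replicates 3 and 4 were its highest. In all, dividing by Neurog3 made the spread smaller for 5 of 10 members and larger for the other 5, and smaller for 21.4% of all 14769 genes present in every library. Over members of at least 1 RPKM, which leaves out Runx1t1, it was smaller for 4 of 9, against 19.4% of genes at that level. The count over all 10 members was 4 without replicate 3 and 7 without replicate 2. For these the share over all genes was not computed, and 21.4% is no background for them. The low Neurog3 value of replicate 2 carried most of the Neurog3 spread, whose SD on the log2 scale was 0.44 with it and 0.05 without it. Without that library Myt1 had an SD of 0.17 for its level and 0.11 for its ratio, and Rfx6 0.19 and 0.15. The relation is also not tied to Neurog3 alone: the delivered Pdx1 and Mafa kept ratios to Neurog3 with SDs of 0.01 and 0.04 on the log2 scale, and against Pdx1 the ratio of Myt1 had an SD of 0.10. Against Pax6, which was low in replicate 1, it was 0.59.

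**Figure D4:**
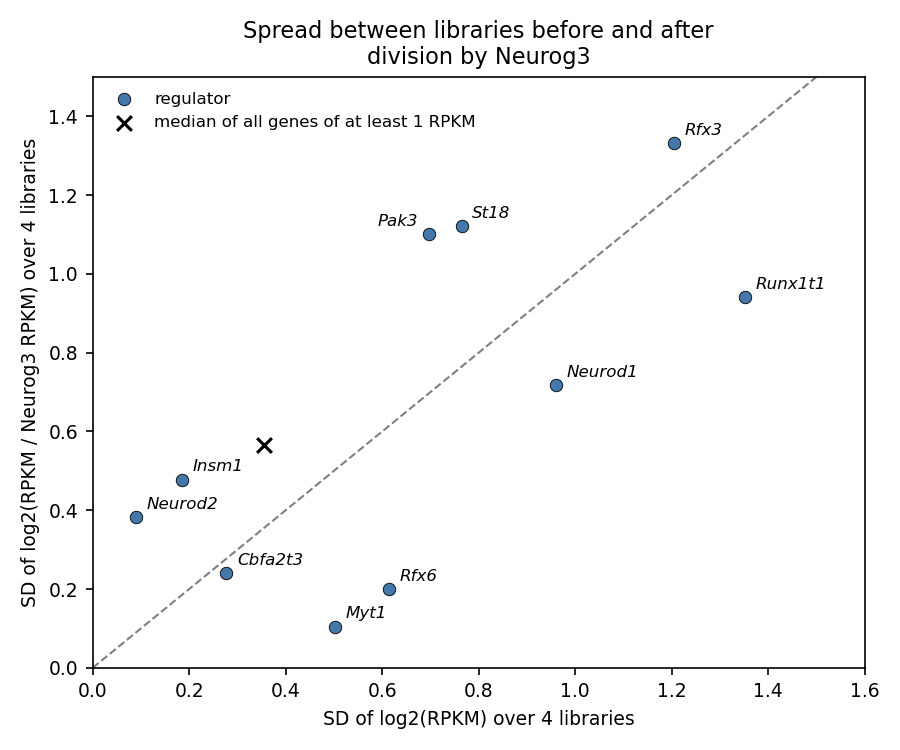
SD over the 4 libraries of log2(RPKM) on the horizontal axis and of the log2 ratio to Neurog3 on the vertical axis, with a point for each regulator and a cross at the median of all genes of at least 1 RPKM (0.36 and 0.57). Points under the dashed line of equality vary less after division by Neurog3, with Myt1 and Rfx6 farthest to the lower side in proportion.

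By library, 6 of 10 members were lowest in replicate 2, namely Neurod1, Neurod2, Myt1, Rfx6, Runx1t1 and Cbfa2t3, against 29.6% of the 14769 genes present in every library. Replicate 1 held the highest value of 6 of 10 members, against 35.9% of those genes, and replicate 4 of none. These counts depend on the adjustment for GC content and length, after which replicate 1 was highest for Rfx3 alone and replicate 4 for Rfx6. Replicate 2 was then lowest for 5 members, Neurod1, Myt1, Rfx3, Rfx6 and Runx1t1, while Neurod2 was highest there and Cbfa2t3 lowest in replicate 1. Shares over all genes were not computed after adjustment, so the adjusted counts have no background.

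Part of these patterns moved when a trend with transcript base composition and length was taken out of each library, an adjustment added after the data had been seen. Rfx3, with 40.2% GC and a transcript of 9146 bases, had a range of 1.88 between libraries on the log2(RPKM + 1) scale as deposited and 0.95 after adjustment, and replicates 3 and 4 were then no longer its lowest. The SD of its difference from Neurog3 was 0.15 after adjustment and 0.98 as deposited, and its level then passed as above 1 RPKM (limma, adjusted p = 0.0063). Cbfa2t3 had a range of 0.16 after adjustment and 0.54 as deposited. Neurod1 kept its direction with a larger range, 2.40 after adjustment and 1.74 as deposited, with replicates 3 and 4 high in both. St18 likewise stayed highest in replicate 2 and lowest in replicates 3 and 4. Pak3 did not keep its order: after adjustment replicates 3 and 4 were its highest and replicate 1 its lowest. The range shrank for 3 of 10 members and grew for 7. Its share over all genes was not computed, so these counts cannot be called particular to the members. For Myt1 the SD of the difference from Neurog3 was 0.20 after adjustment and 0.14 as deposited.

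**Figure D5:**
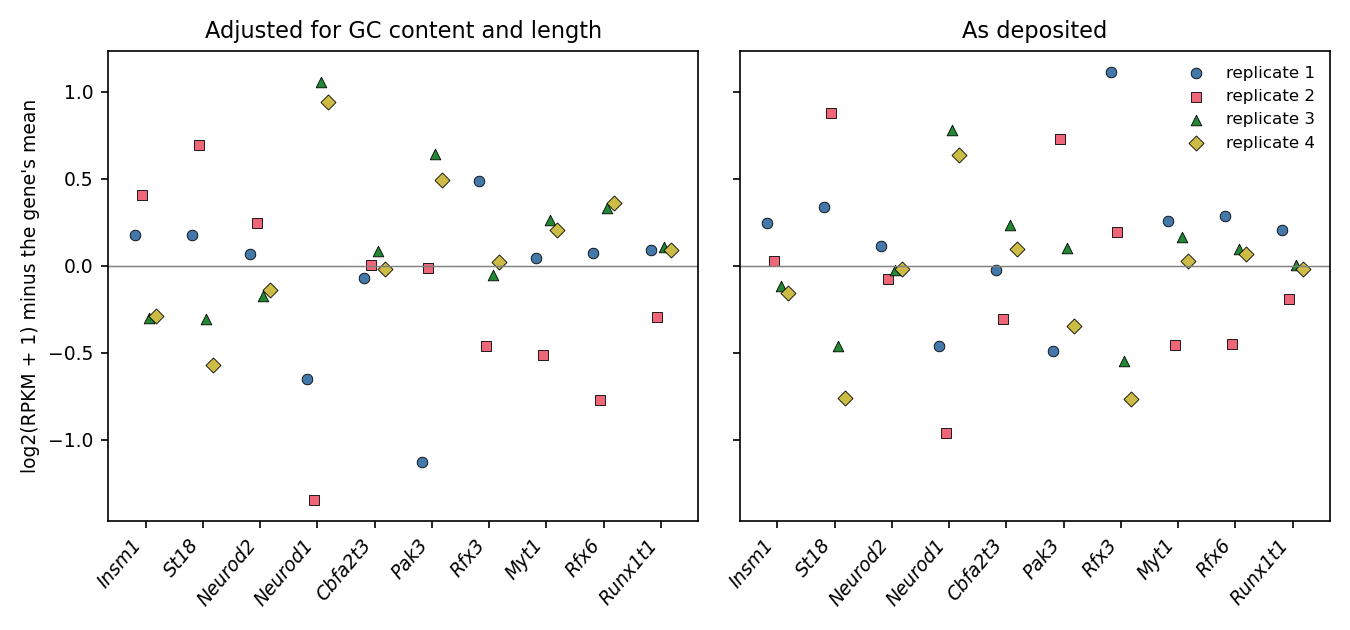
Deviation of log2(RPKM + 1) from each gene's own mean in the 4 libraries, after adjustment for GC content and transcript length (left) and as deposited (right). Neurod1 is high in replicates 3 and 4 in both panels, while Rfx3 loses its low values in replicates 3 and 4 on adjustment.

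Other genes known to follow Neurog3 in endocrine progenitors were present in part. Of 18 listed, 11 lay above 1 RPKM, 4 below and 3 in neither direction, with a median of 11.0 RPKM, against 65.0% above and a median of 7.38 RPKM for all genes tested. Cdkn1a, given above, was the highest of them. Chga, the granule protein chromogranin A, was next at 33.1, 23.7, 471 and 470.2 RPKM, high in replicates 3 and 4 like Neurod1. At the low end Nkx6-1, a beta-cell identity factor, had 0.02 RPKM in replicate 1, 0.03 RPKM in replicate 4 and a listed 0 in replicates 2 and 3, and Fev, a factor of serotonin-producing cells and endocrine progenitors, was at 0.145 ± 0.0850 RPKM (SD, n = 4). The list's summed level was 459 and 471 RPKM in replicates 1 and 2 and 1705 and 1786 RPKM in replicates 3 and 4. Cdkn1a, Chga and Ghrl, each higher in replicates 3 and 4, carried most of that sum, so it is not a pattern of the whole list. Tox3 and Nkx2-2, named after their values were seen, were instead highest in replicate 1 and lowest in replicate 4.

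Upstream of Neurog3, 11 of 14 genes of the progenitor and Notch list lay above 1 RPKM and 3 passed in neither direction (limma). The list's median was 4.98 RPKM, against 7.38 RPKM for all genes tested. Of all genes tested 65.0% lay above and 26.1% below, the shares to set beside each count of this paragraph. Foxa2, a foregut factor that activates Neurog3, was at 49.9, 27.3, 26.6 and 28.7 RPKM and Notch1 at 31.4, 10.5, 27.7 and 24.2 RPKM, lowest in replicate 2. Hes1, the Notch target that represses Neurog3, was at 0.92, 2.91, 0.74 and 0.87 RPKM, highest in replicate 2, and Sox9, a progenitor and duct factor, at 0.843 ± 0.276 RPKM, and neither passed (limma, adjusted p = 0.527 and 0.250). Of 10 genes for bHLH partners and inhibitors, 6 lay above 1 RPKM and 2 below. Highest were the inhibitors Id3 at 248 ± 73.9 RPKM and Id1 at 91.1 ± 29.3 RPKM (SD, n = 4), both lowest in replicate 1. The inhibitors were divided, as Id4 and Hey2 were the 2 below, with means of 0.19 and 0.035 RPKM. Id2 lay above 1 RPKM, and Hes1 and Hey1 passed in neither direction. The partners Tcf12, Tcf3 and Tcf4, named after their values were seen, all lay above 1 RPKM, with means of 47.6, 18.5 and 2.31 RPKM. Of 23 paralogues of the members, 11 lay above 1 RPKM, 8 below, 2 in neither direction and 2, Neurod6 and Atoh1, were listed at 0 in every library.

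All 12 beta-cell genes listed as targets of Neurod1 or Rfx6 lay above 1 RPKM, against 65.0% of all genes tested. Their median was 60.9 RPKM. The list shares Iapp, Ins1 and Ins2 with the islet hormone list, and it holds the delivered Pax6 and the insulin genes selected by the sort, so its count is no independent evidence on the regulators. Apart from those it was led by Iapp, the islet amyloid peptide, at 2075, 4871, 4529 and 5201 RPKM. The lowest were Slc30a8, the zinc transporter of insulin granules, at 1.63, 3.39, 5.96 and 5.63 RPKM, and Cacna1c, a calcium channel subunit. Cacna1c had a mean of 5.17 ± 3.54 RPKM (SD, n = 4). Both genes were higher in replicates 3 and 4 than in replicates 1 and 2, as Neurod1 was. That order did not hold for Iapp, where replicate 2 exceeded replicate 3, or for Cacna1a and Cacna1d, named after their values were seen. Replicate 1 exceeded replicate 4 for Cacna1a (13.3 against 13 RPKM) and Cacna1d (6.79 against 6.04 RPKM). The share of all genes with that order was not computed.

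Several members are also neuronal genes. Of 12 neuronal markers 11 were measured here. Of these 7 lay above 1 RPKM and 1, Gap43, below it, against 65.0% and 26.1% of all genes tested. The same shares stand beside the other counts of this paragraph. The summed level of the neuronal markers was 267 and 190 RPKM in replicates 1 and 2 and 462 and 453 RPKM in replicates 3 and 4. Tubb3, a neuronal tubulin also made in endocrine cells, led with 86.9, 76.8, 197 and 194 RPKM, and Syp, a synaptic vesicle protein, followed with 33.9, 24.45, 105 and 109 RPKM, both high in replicates 3 and 4 like Neurod1. Other markers of the list, named after their values were seen, did not share this: Nefm, Elavl3 and Snap25 were highest in replicate 1. None of the 11 was at 0 in every library. Enteroendocrine markers had summed levels of 790.3 and 1610 RPKM in replicates 1 and 2 and 2856 and 2987 RPKM in replicates 3 and 4, with 3 of 8 above 1 RPKM. Cck, Gip and Sct carried that sum, and Tac1 was instead higher in replicates 1 and 2. The islet hormone list, 6 of 7 above 1 RPKM, summed to 4062 and 10230.3 RPKM in replicates 1 and 2 and to 15396 and 17592 RPKM in replicates 3 and 4. Biliary epithelium markers, 9 of 11 above 1 RPKM, had sums of 1900.0, 4035, 2424.5 and 2507 RPKM in replicates 1 to 4. Of 6 endothelial markers 5 lay below 1 RPKM and 1 passed in neither direction, with sums of 1.04 to 1.31 RPKM. The part of these cell types in the levels of the regulators was not tested.

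As a description over 4 libraries only, the genes closest in profile to Neurod1, by Euclidean distance of log2(RPKM + 1) centred on each gene's mean, were Gdpd5 (0.06), Nfasc (0.07) and Scnn1b (0.12), and 86 of 7492 genes of at least 10 RPKM lay within 0.5. For Insm1, whose profile is nearly flat, they were Ogfod1 (0.01), Erbb3 (0.02) and Ccdc6 (0.03), with 2722 genes within 0.5.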

How the data were processed

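RNA sequencing libraries of sorted rGBC2 cells (4 libraries, 1 group) were measured. The authors deposited RPKM values rounded to 2 decimals, with 1 RefSeq transcript per gene. The submitters' processing notes name Bowtie, CASAVA 1.8.2 and the build mm9. How reads were counted, by strand or not, and what became of reads with several matches is not given in the sources used here. Gapdh is listed at 0 in 1 library, so values of genes with near-identical copies are uncertain. The table has 6 further per-sample columns that match no sample here and were not used. The members and gene lists were chosen with earlier results of these data known.

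Values were tested as log2(RPKM + 1) with limma 3.58.1 (R 4.3.3, intercept only, mean-variance trend, two-sided, adjusted p threshold 0.05), a scale that understates differences of low genes. Pairs of genes were compared with exact sign-flip permutation tests. The scripts were tested on simulated data. Transcript lengths and GC content came from GENCODE M21, matched by RefSeq identifier for 98.1% of genes. Depth was estimated by fitting the RPKM of 1 read to low values of single-exon olfactory receptor genes spanning under 1100 bases, and the deposited coordinates were not converted. All members and Neurog3 are named, and of each other list mainly the 2 highest and 2 lowest genes and those of the fixed pairs. Alternatives changed the pseudocount, filter, trend, scaling, threshold, reference and libraries. The fits that count replicates 3 and 4 once or use a pair of libraries alone, the GC and length adjustment and the sign-flip count against Neurog3 were chosen after seeing the data. The genes closest in profile to St18 are not reported here.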

Additional observations from a re-analysis of the deposited data

Results flagged for a closer look

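Of 29 levels and differences checked with Dixon's test for a sample far from the other 3, 2 stood out, and chance alone marks about 1 in 20. The Neurog3 level was low in replicate 2 (1289.7 RPKM, against 2268 to 2444 RPKM in the others), with a gap of 0.883 of the whole range on the log2(RPKM + 1) scale. The difference of Neurod2 from Neurog3 stood apart in the same library, at -6.80 against -7.62 to -7.53, with a gap of 0.889 of the range, while Neurod2 itself was at 10.6 RPKM there.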

How the results depend on the processing

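The number of members above 1 RPKM was 7, and 5 to 9 over all alternatives run (6 to 8 with a single replicate left out, 9 at a threshold of 0.5 RPKM and 5 at 2 RPKM). The number below was 1 throughout except 2 at a threshold of 2 RPKM. There Rfx6, called in neither direction at 1 RPKM, was called below (-0.40, limma, adjusted p = 0.0423). That change follows from the threshold itself. Neurod1, Neurod2, Insm1, St18, Cbfa2t3 and Runx1t1 kept their call under all 16 alternatives of the level test. Myt1 lost it under 5 and Pak3 under 1 (the 2 RPKM threshold). Rfx3 gained a call above under 5 and Rfx6 under 3, besides the call of Rfx6 below at the 2 RPKM threshold. Members called lower than Neurog3 numbered 10 under every limma alternative and 0 by the exact sign-flip permutation test, added later, whose smallest p is 0.125. No pair of related genes changed direction under the alternatives run for pairs, which did not include replicates 3 and 4 alone. In each of those libraries Neurod1 minus Neurod2 and Rfx6 minus Rfx3 were positive, while their means over all 4 libraries were negative. In replicates 1 and 2 alone 7 members lay above 1 RPKM, and in replicates 3 and 4 alone 8. No paired analysis was possible because there is a single group. Depth limits Runx1t1, which is at about 3 reads in replicate 2.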
